A study of Homo sapiens with 14 samples.

Results

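The kallikrein genes encode secreted serine proteases, and KLK3 encodes prostate specific antigen (PSA), the blood marker of prostate disease. Counts were read for 10 of them, KLK1, KLK2, KLK3, KLK4, KLK5, KLK6, KLK10, KLK11, KLK12 and KLK15, chosen by gene symbol (by NCBI gene number for SGN-2FF) from 27819 genes shared by the 4 tables. Members whose mean was under 5 counts in DMSO and with every inhibitor were left out, which removed KLK5, KLK6 and KLK12 and kept 7 genes. mRNA was measured by RNA-seq in 14 libraries of CWR22Rv1, a line of human prostate cancer cells that respond to androgen. The cells had been kept with inhibitors of glycosylation for 72 h. The vehicle group was DMSO (3 libraries). Fucotrim I at 30 μM (3 libraries) and Fucotrim II at 60 μM (2 libraries) are rhamnose-1-phosphate derivatives. Both are aimed at GMDS, an enzyme on the path to GDP-fucose. SGN-2FF at 100 μM (3 libraries) is 2-fluorofucose, and P-SiaFNEtoc at 2 μM (3 libraries) is a fluorinated sialic acid that blocks sialyltransferases. The doses differed, so values for the inhibitors are set side by side and were not tested against each other. Where libraries of different inhibitors are said to overlap or not, the share of all genes that do so was not counted. A single cell line was used, and the 4 comparisons share their 3 DMSO libraries.

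In the prostate, luminal epithelial cells release KLK2, KLK3 and KLK4 into the seminal fluid, where KLK3 cleaves the semenogelins that hold the clot together. KLK2 and KLK4 can activate other kallikreins. KLK2 and KLK3 are textbook androgen targets, whose transcription rises with the hormone in luminal cells.

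The kallikrein genes form a cluster of 265.1 kb on chromosome 19 (hg38, positions 50819146 to 51084245), in the order KLK1, KLK15, KLK3, KLK2, the pseudogene KLKP1, KLK4, KLK5 and so on to KLK14. KLK2 (50861568 to 50880567) and KLK3 (50854915 to 50860764) lie on the plus strand and the other 8 members on the minus strand. KLK1 spans 50819146 to 50823787, KLK15 50825289 to 50837213, KLK4 50906351 to 50911395, KLK10 51012739 to 51020175 and KLK11 51022216 to 51028039. None of the 7 genes kept shared exon bases on its own strand, or an identical 100-base stretch of transcript, with another gene of the GENCODE annotation. Of KLK10's exon bases, 6.32% lay opposite an unnamed gene on the other strand.

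The 250 bases before the RefSeq start sites of KLK3 and KLK2 (GRCh38.p14, plus strand, chr19:50854665-50854914 and chr19:50873189-50873438) are printed because the proximal promoters of these neighbours resemble each other and hold a shared motif. Capitals mark the match to a spaced motif, GNACA and GTNC with 4 bases between them, which is of the androgen response element type and was searched on both strands.

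KLK3 promoter: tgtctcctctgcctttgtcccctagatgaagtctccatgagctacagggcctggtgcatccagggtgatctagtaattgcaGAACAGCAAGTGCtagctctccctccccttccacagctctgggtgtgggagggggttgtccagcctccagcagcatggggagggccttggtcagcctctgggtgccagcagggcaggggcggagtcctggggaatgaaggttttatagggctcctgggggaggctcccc

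KLK2 promoter: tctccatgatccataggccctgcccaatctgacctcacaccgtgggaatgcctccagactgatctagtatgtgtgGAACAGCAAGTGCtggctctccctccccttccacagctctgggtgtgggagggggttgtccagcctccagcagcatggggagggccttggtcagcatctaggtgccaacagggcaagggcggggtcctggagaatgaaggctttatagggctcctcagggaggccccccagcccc

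The GENCODE span of KLK2 begins further upstream than this RefSeq start. The matched letters were identical, GAACAGCAAGTGC, and began 169 bases before the start of KLK3 and 175 bases before that of KLK2. Of the 196 aligned upstream bases 178 (90.8%) were identical, with an unbroken identical run of 80 bases that began 154 bases before the start of KLK3. Over windows from 250 bases before to 50 bases after each start, the spaced motif was in 769 of 35116 RefSeq promoters (2.19%). Among the kallikrein promoters listed, it was found in KLK2 and KLK3 and not in those of KLK4, KLK5, KLK6, KLK7, KLK9, KLK10, KLK11, KLK12, KLK13, KLK14 and KLK15. No promoter was listed for KLK1, KLK8 or KLKP1, so these were not searched. The hexamer AGAACA, which overlaps the spaced motif in KLK3, was in 14.8% of all promoters and, among the kallikrein promoters listed, in that of KLK3 (from 170 bases before its start). The motif was chosen after these sequences had been seen, and a match describes letters and not binding.

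Library totals ran from 12553094 to 19981453 counts on genes. Levels are CPM (counts divided by the scaled library total, times 1e6) on a TMM scale shared by the 14 libraries, and errors are the SD between libraries. All 5 luminal prostate markers (HOXB13, KRT8, KRT18, FOLH1 and SLC45A3) were over 1 CPM in every library. The basal markers KRT5, KRT14 and TP63 together reached at most 0.455 CPM, and CD3E had no count. The neuroendocrine markers SYP and ENO2, the fibroblast marker COL1A1 and the macrophage marker CD68 were also over 1 CPM in every library, while CHGA and INSM1 stayed at or under 0.125 CPM.

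In DMSO, KLK4 was the most abundant kallikrein mRNA, at 169 CPM per kb of its reference transcript. KLK1 followed at 40.7 CPM per kb, and KLK2 and KLK3 both stood at 20.9. KLK11 was at 4.39, KLK15 at 3.03 and KLK10 at 0.117 CPM per kb. The summed level of the 7 genes was 361 to 381 CPM in DMSO, 513 to 573 with Fucotrim I, 540 to 584 with Fucotrim II, 666 to 706 with SGN-2FF and 502 to 570 with P-SiaFNEtoc. The sum was therefore higher in each of the 11 treated libraries than in any DMSO library.

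Of the 7 genes, 6 (KLK1, KLK2, KLK3, KLK4, KLK11 and KLK15) passed the filter on low counts in each comparison, and each had at least 66 counts in every library. All 6 rose with Fucotrim I, with Fucotrim II, with SGN-2FF and with P-SiaFNEtoc (edgeR adjusted p under 0.05, that is, after Benjamini-Hochberg adjustment over all genes tested). Of all genes, 21.6% were called higher with Fucotrim I (14188 tested), 25.6% with Fucotrim II (14617), 11.5% with SGN-2FF (14312) and 9.02% with P-SiaFNEtoc (14259), and the share called lower was 22.1%, 25.7%, 9.08% and 7.33%. Of 14019 genes tested with every inhibitor, 456 (3.25%) were called higher with all 4 and 364 (2.6%) lower with all 4. The 6 genes had median log2 fold changes of 0.88, 0.70, 0.98 and 0.57 with Fucotrim I, Fucotrim II, SGN-2FF and P-SiaFNEtoc, against 0.00, 0.01, 0.00 and 0.00 for all genes. For each of the 6 genes and each inhibitor, every treated library lay above every DMSO library, as did 25.2% of all genes with Fucotrim I, 33.8% with Fucotrim II, 16.9% with SGN-2FF and 16.6% with P-SiaFNEtoc. More cells with these mRNAs and more mRNA per cell cannot be told apart in bulk libraries.

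**Figure D1:**
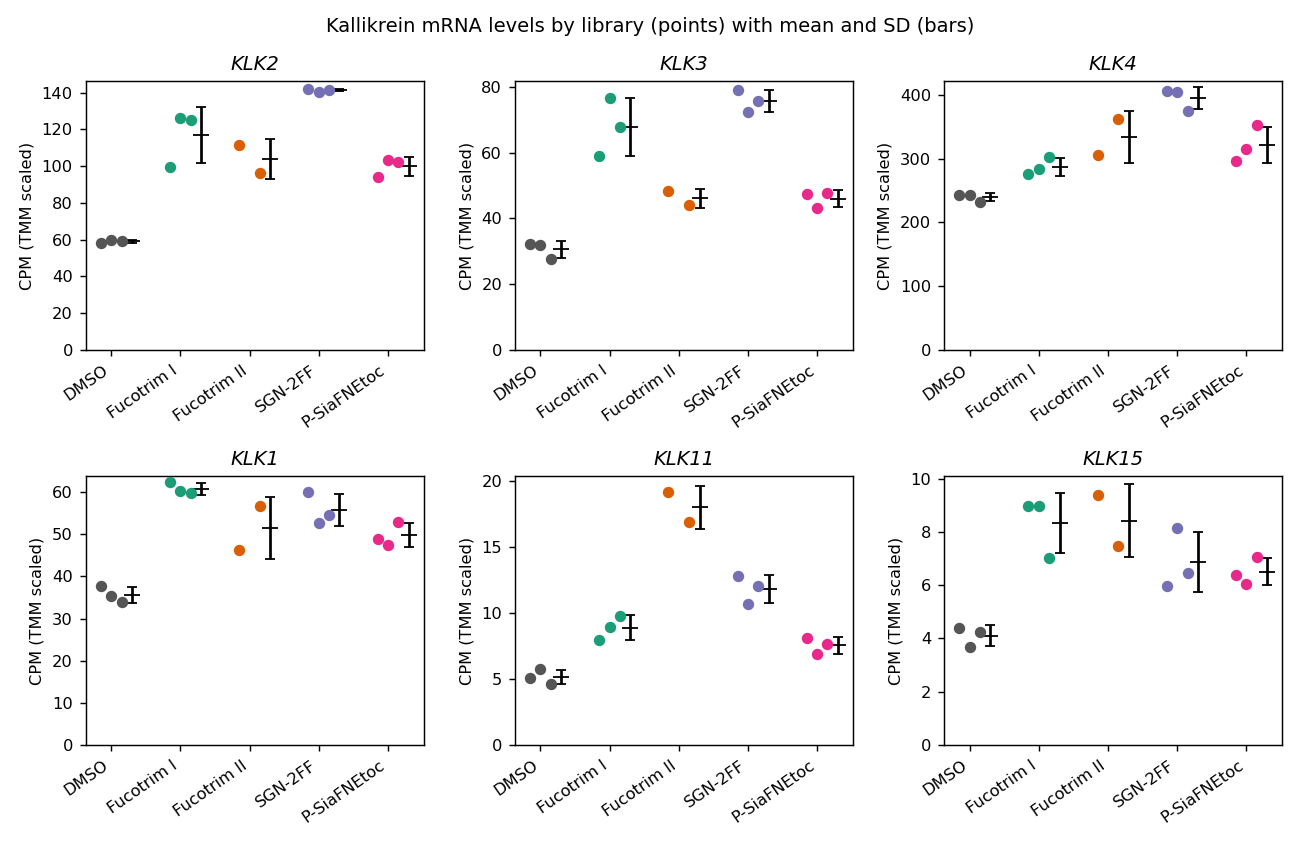
TMM-scaled CPM (vertical axes, from 0) of 6 kallikrein genes by treatment (horizontal axes), with 1 point per library and bars for the mean and SD (n = 3, and n = 2 for Fucotrim II). DMSO libraries lie below the treated libraries in each panel, for example 27.5 to 32.3 CPM against 43.1 CPM or more for KLK3.

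KLK3 mRNA, which encodes PSA, stood at 32.3, 31.9 and 27.5 CPM in DMSO. It was at 58.9, 76.6 and 67.9 CPM with Fucotrim I, and at 48.2 and 44.1 CPM with Fucotrim II. With SGN-2FF the libraries held 79.2, 72.4 and 75.7 CPM, and with P-SiaFNEtoc 47.3, 43.1 and 47.7 CPM. The means ran from DMSO through P-SiaFNEtoc, Fucotrim II and Fucotrim I to SGN-2FF, and the libraries overlapped between P-SiaFNEtoc and Fucotrim II and between Fucotrim I and SGN-2FF. KLK3 rose 2.22-fold with Fucotrim I (log2 fold change 1.15 ± 0.09, SE, adjusted p = 1.26e-08) and by 0.59 ± 0.09 on the log2 scale with Fucotrim II (adjusted p = 0.000649). It rose 2.49-fold with SGN-2FF (1.32 ± 0.06, adjusted p = 9.1e-15) and 1.51-fold with P-SiaFNEtoc (0.59 ± 0.06, adjusted p = 8.36e-08). By size of the rise KLK3 was at rank 37 of the 1647 genes called higher with SGN-2FF, 173 of 3068 with Fucotrim I, 194 of 1286 with P-SiaFNEtoc and 1898 of 3748 with Fucotrim II.

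KLK2, which encodes a trypsin-like protease close in sequence to PSA, varied little between the DMSO libraries, at 58.2, 60.03 and 59.2 CPM. Fucotrim I libraries held 99.5, 126 and 125 CPM, and Fucotrim II libraries 112 and 96.3 CPM. The SGN-2FF libraries were at 142, 141 and 142 CPM, above all the others (not tested), and those of P-SiaFNEtoc at 93.9, 103 and 102 CPM. The libraries of P-SiaFNEtoc overlapped those of Fucotrim II, the next mean in order, and these overlapped those of Fucotrim I. The rise was 1.98-fold with Fucotrim I (log2 fold change 0.99 ± 0.08, adjusted p = 1.17e-08), 1.75-fold with Fucotrim II (0.81 ± 0.08, adjusted p = 4.66e-05), 2.41-fold with SGN-2FF (1.27 ± 0.05, adjusted p = 3.04e-17) and 1.69-fold with P-SiaFNEtoc (0.76 ± 0.05, adjusted p = 2.08e-12). KLK2 ranked 41 of 1647 genes called higher with SGN-2FF and 105 of 1286 with P-SiaFNEtoc. Its ranks were 285 of 3068 with Fucotrim I and 1181 of 3748 with Fucotrim II.

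The ratio of KLK2 to KLK3 counts within a library does not depend on the scaling of libraries. It was 1.80, 1.88 and 2.15 in DMSO (1.95 ± 0.182, SD, n = 3). The mean ratio was 1.73 ± 0.101 with Fucotrim I, 2.25 ± 0.0917 with Fucotrim II (n = 2), 1.87 ± 0.0734 with SGN-2FF and 2.18 ± 0.209 with P-SiaFNEtoc. On the log2 scale the differences from DMSO were -0.17, 0.21, -0.06 and 0.16 in that order, with two-sided exact permutation p = 0.2, 0.2, 0.6 and 0.3 (adjusted over the 4 comparisons, 0.4, 0.4, 0.6 and 0.4). The smallest p this design allows is 0.1 for 3 against 3 libraries and 0.2 for 3 against 2, so the test could not reach 0.05. Only Fucotrim II, at 2.19 and 2.32, had libraries that all lay above those of DMSO, which reached 2.15. With 2 libraries against 3 this separation gives no more than the permutation p of 0.2, and is a description.

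KLK4 encodes a protease that activates other kallikreins and degrades enamel proteins in developing teeth. Its level in DMSO was 243, 243 and 232 CPM. Libraries with Fucotrim I held 275, 284 and 303 CPM, those with Fucotrim II 305 and 362, those with SGN-2FF 405, 405 and 375, and those with P-SiaFNEtoc 297, 316 and 352. SGN-2FF was the highest (not tested) with no overlap with the rest, while Fucotrim I, P-SiaFNEtoc and Fucotrim II overlapped as neighbours in that order. KLK4 rose 1.20-fold with Fucotrim I (log2 fold change 0.27 ± 0.05, adjusted p = 0.000196), the smallest change among the 6 genes and 4 inhibitors. The rise was 1.39-fold with Fucotrim II (0.47 ± 0.08, adjusted p = 0.000782), 1.67-fold with SGN-2FF (0.74 ± 0.04, adjusted p = 4.91e-14) and 1.35-fold with P-SiaFNEtoc (0.43 ± 0.05, adjusted p = 3.3e-07). By size of the rise KLK4 ranked 2315 of 3068 genes called higher with Fucotrim I and 2402 of 3748 with Fucotrim II. It ranked 181 of 1647 with SGN-2FF and 342 of 1286 with P-SiaFNEtoc. KLK4 counts were 63.8 to 64.1% of the summed CPM of the 7 genes in DMSO and 50.2 to 53.6% with Fucotrim I. The share was 56.4 to 62.0% with Fucotrim II, 56.3 to 58.7% with SGN-2FF and 59.1 to 61.8% with P-SiaFNEtoc. It is not corrected for transcript length.

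KLK1 is tissue kallikrein, which releases kinins from kininogen. It was at 37.7, 35.3 and 33.8 CPM in DMSO, 62.3, 60.3 and 59.7 with Fucotrim I, and 46.3 and 56.7 with Fucotrim II. It was at 59.996, 52.6 and 54.6 CPM with SGN-2FF and 48.9, 47.4 and 52.9 with P-SiaFNEtoc. DMSO lay below all treated libraries, and each neighbouring pair of inhibitors in order of the mean overlapped. The log2 fold changes were 0.77 ± 0.06 (adjusted p = 1.08e-08) with Fucotrim I, 0.53 ± 0.10 (adjusted p = 0.00151) with Fucotrim II, 0.65 ± 0.06 (adjusted p = 8.6e-09) with SGN-2FF and 0.48 ± 0.06 (adjusted p = 7.02e-07) with P-SiaFNEtoc. By size of the rise KLK1 ranked 541 of 3068 genes called higher with Fucotrim I and 2149 of 3748 with Fucotrim II. It ranked 251 of 1647 with SGN-2FF and 288 of 1286 with P-SiaFNEtoc.

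KLK15 lies next to KLK1 and encodes a protease that can activate the PSA precursor. It had low levels, at 4.40, 3.67 and 4.26 CPM in DMSO. The treated libraries held 8.96, 8.98 and 7.03 CPM with Fucotrim I, 9.38 and 7.47 with Fucotrim II, 5.98, 8.14 and 6.46 with SGN-2FF, and 6.40, 6.05 and 7.06 with P-SiaFNEtoc. The inhibitors overlapped as neighbours, above DMSO. KLK15 rose 2.04-fold with Fucotrim I (log2 fold change 1.03 ± 0.15, adjusted p = 1.12e-05), 2.04-fold with Fucotrim II (1.03 ± 0.16, adjusted p = 0.000709), 1.70-fold with SGN-2FF (0.77 ± 0.15, adjusted p = 0.000487) and 1.59-fold with P-SiaFNEtoc (0.66 ± 0.14, adjusted p = 0.00101). In that order its ranks were 250 of 3068, 731 of 3748, 167 of 1647 and 156 of 1286 genes called higher.

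KLK11 is also called hippostasin. Its libraries held 5.11, 5.72 and 4.64 CPM in DMSO, 7.96, 8.92 and 9.80 with Fucotrim I and 19.1 and 16.9 with Fucotrim II. With SGN-2FF they held 12.8, 10.7 and 12.004 CPM, and with P-SiaFNEtoc 8.13, 6.87 and 7.69 CPM. Fucotrim II was the highest and SGN-2FF the next (not tested), with no overlap between them or with the other groups, while P-SiaFNEtoc and Fucotrim I overlapped. KLK11 rose 3.46-fold with Fucotrim II (log2 fold change 1.79 ± 0.13, adjusted p = 1.33e-05), at rank 96 of 3748 genes called higher. It rose 2.29-fold with SGN-2FF (1.20 ± 0.12, adjusted p = 2.5e-08), 1.72-fold with Fucotrim I (0.78 ± 0.14, adjusted p = 0.000104) and 1.47-fold with P-SiaFNEtoc (0.56 ± 0.13, adjusted p = 0.003). In that order its ranks were 53 of 1647, 523 of 3068 and 222 of 1286 genes called higher.

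**Figure D2:**
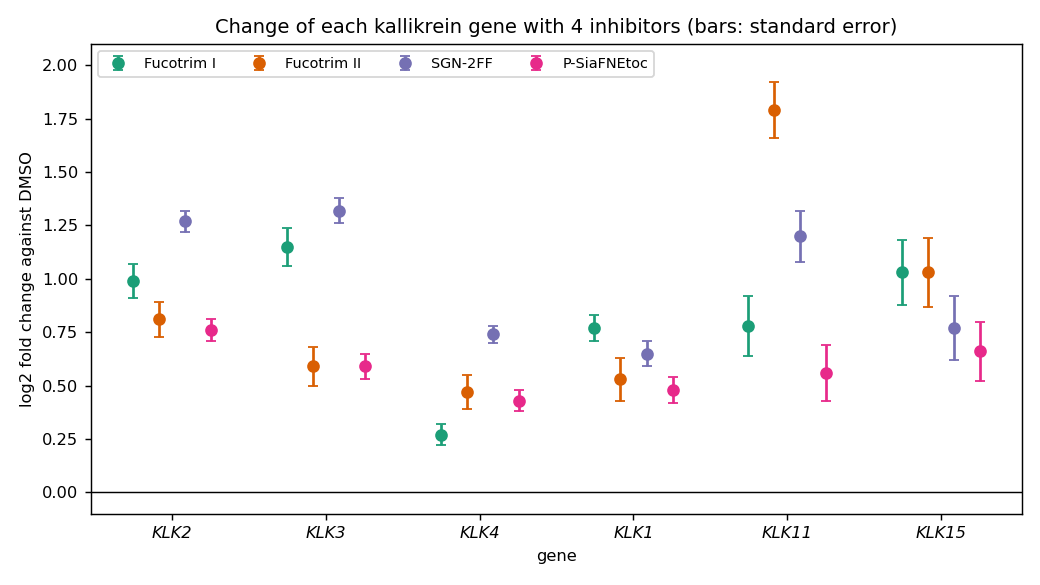
Log2 fold change against DMSO (vertical axis) of 6 kallikrein genes (horizontal axis) with each inhibitor (colour), with bars for the standard error derived from the edgeR F statistic. All 24 values lie above 0, from 0.27 for KLK4 with Fucotrim I to 1.79 for KLK11 with Fucotrim II.

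The members left were at or near the limit of detection. KLK10 had 4 to 14 counts per library and was not tested, with 0.349 ± 0.082 CPM in DMSO, 0.344 ± 0.0129 with Fucotrim I, 0.619 ± 0.315 with Fucotrim II, 0.718 ± 0.264 with SGN-2FF and 0.434 ± 0.103 with P-SiaFNEtoc, and neighbouring groups overlapped. KLK12 had 6 counts and KLK6 2 counts over the 14 libraries together. KLK5 had 0 counts in all of them, which allows up to 0.0135 CPM (3 counts of the total, for counting error only).

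The 6 family genes outside the members were KLK7 with 8 counts in all, KLK8 with 44, KLK9 with 0, KLK13 with 49, KLK14 with 251 and KLKP1 with 1776. KLK8 shares 40.1% of its exon bases, and KLK9 96.3%, with neighbours on the same strand, so their counts are uncertain. The annotation holds a KLKP1 entry that lies wholly (100% of its exon bases) within another entry of the same name. KLK14, at the far end of the cluster, stood at 0.880 to 1.75 CPM in DMSO and was not called with any inhibitor, with log2 fold changes of -0.45 ± 0.35, -0.44 ± 0.46, -0.01 ± 0.28 and -0.72 ± 0.31 (edgeR adjusted p = 0.309, 0.457, 0.99 and 0.108 for Fucotrim I, Fucotrim II, SGN-2FF and P-SiaFNEtoc). With Fucotrim II a single library set that value, which was -1.44 (called) without replicate 1 and 0.16 without replicate 2. With P-SiaFNEtoc it was -0.97 (called) without DMSO replicate 1. KLKP1, between KLK2 and KLK4, rose by 0.51 ± 0.12 with Fucotrim I, by 0.80 ± 0.13 with Fucotrim II and by 0.50 ± 0.12 with SGN-2FF. Its value with P-SiaFNEtoc was 0.18 ± 0.12 (adjusted p = 0.32).

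Within 500 kb of either end of the cluster the annotation holds 39 other protein-coding genes, of which 34 were listed and 18 tested. Of these, 8 rose with Fucotrim I, 9 with Fucotrim II, 4 with SGN-2FF and 2 with P-SiaFNEtoc, and none was called lower with edgeR. The shares of all genes called higher were 21.6%, 25.6%, 11.5% and 9.02% in that order, and those called lower 22.1%, 25.7%, 9.08% and 7.33%. Whether the neighbours differ from all genes was not tested. At an unadjusted p under 0.05 there was 1 lower, with Fucotrim II, and limma-voom called 1 lower there and DESeq2 0. Their median log2 fold changes were 0.30, 0.42, 0.18 and 0.10. CLEC11A, which encodes a secreted growth factor for bone-forming cells, had the largest rise of them with each inhibitor. It was at 5.70 ± 1.10 CPM in DMSO and rose by 1.37 ± 0.14 with Fucotrim I, 2.23 ± 0.17 with Fucotrim II, 0.58 ± 0.14 with SGN-2FF and 0.57 ± 0.13 with P-SiaFNEtoc on the log2 scale. It was the only 1 of the 18 called higher with all 4.

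**Figure D3:**
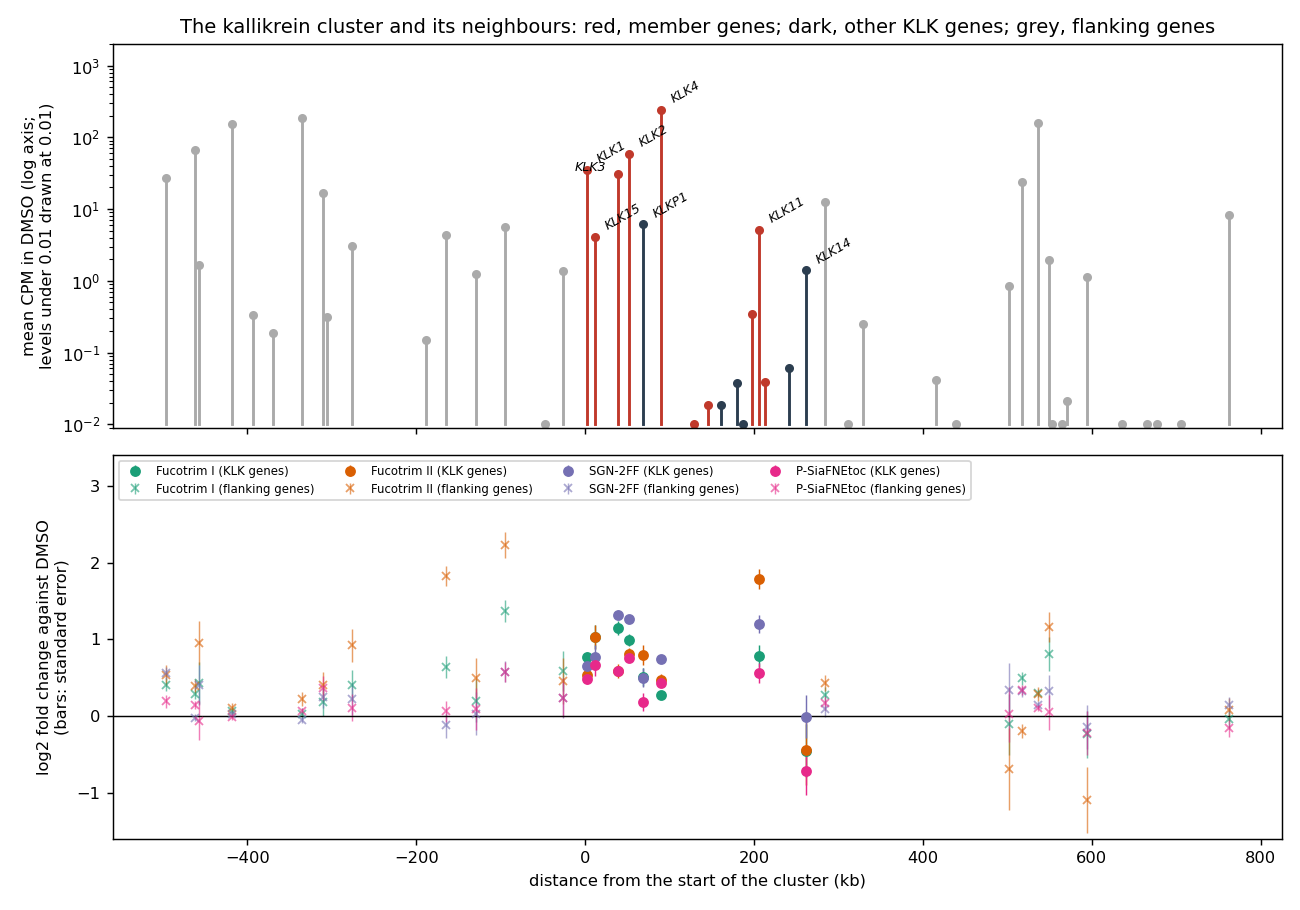
Mean CPM in DMSO (upper panel, log axis, levels under 0.01 drawn at 0.01) and log2 fold change against DMSO with standard errors (lower panel) by distance from the start of the cluster in kb, with KLK genes drawn at their midpoint and flanking genes at their lower coordinate. The 6 tested members lie above 0 with each inhibitor, KLK14 was not called with any inhibitor in the fits drawn, and the flanking gene CLEC11A reaches 2.23 with Fucotrim II.

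FOXA1, a pioneer factor that opens chromatin for other transcription factors, was called higher with P-SiaFNEtoc (0.14 ± 0.04, adjusted p = 0.0105), a call lost without DMSO replicate 3 (0.13). It stood at -0.07, -0.12 and -0.04 with Fucotrim I, Fucotrim II and SGN-2FF, uncalled, but was called lower without scaling beyond the library total with Fucotrim I (-0.14) and Fucotrim II (-0.28), and with Fucotrim II without Fucotrim II replicate 1 (-0.16). HOXB13, a prostate lineage homeobox factor, rose with each inhibitor, from 218 to 238 CPM in DMSO to 355 to 414 with Fucotrim I, 324 and 405 with Fucotrim II, 298 to 327 with SGN-2FF and 274 to 296 with P-SiaFNEtoc. The corresponding log2 fold changes were 0.73 ± 0.06, 0.66 ± 0.09, 0.44 ± 0.04 and 0.32 ± 0.04.

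Of 16 tested genes for pioneer factors, other partner factors and coregulators of androgen-driven transcription, 2 rose and 10 fell with Fucotrim I, 2 rose and 11 fell with Fucotrim II, 3 rose and 6 fell with SGN-2FF, and 4 rose and 3 fell with P-SiaFNEtoc. The shares of all genes called higher were 21.6%, 25.6%, 11.5% and 9.02% in that order, and those called lower 22.1%, 25.7%, 9.08% and 7.33%. The falls with Fucotrim I numbered 5 without DMSO replicate 1 and 6 without Fucotrim I replicate 3, and those with Fucotrim II 7 without DMSO replicate 1 or 3. DESeq2 called 6, 11, 6 and 2 lower in the order above, and limma-voom 10, 11, 6 and 3. A single fit of all 14 libraries called 1 lower with P-SiaFNEtoc. The 16 genes had median log2 fold changes of -0.17, -0.27, -0.08 and 0.01. HOXB13 and SPDEF, an ETS factor of luminal cells, rose with all 4 inhibitors. SPDEF had log2 fold changes of 0.66 ± 0.06, 0.80 ± 0.09, 0.45 ± 0.06 and 0.34 ± 0.04. NR3C1, MED1 and HSP90AA1 fell with all 4. The values of NR3C1, the glucocorticoid receptor, were -0.22 ± 0.08, -0.36 ± 0.10, -0.40 ± 0.07 and -0.26 ± 0.07, of which the first call was lost without DMSO replicate 1, DMSO replicate 2 or Fucotrim I replicate 3 (-0.20, -0.19 and -0.12). MED1, a subunit of the Mediator complex, was at -0.39 ± 0.06, -0.67 ± 0.06, -0.20 ± 0.05 and -0.13 ± 0.04, and its last call was lost without DMSO replicate 1 or 3 or P-SiaFNEtoc replicate 2 or 3 (-0.13 to -0.12). HSP90AA1, a chaperone gene, was at -0.16 ± 0.05, -0.50 ± 0.07, -0.16 ± 0.03 and -0.21 ± 0.04, and its first call was lost without Fucotrim I replicate 3 (-0.13). ETV1, another ETS factor, fell by 1.18 with Fucotrim I and by 1.31 with Fucotrim II, the largest falls of the list, and by 0.32 with SGN-2FF, and was at 0.06 ± 0.06 with P-SiaFNEtoc, where it was not called.

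Other androgen targets were called in both directions. Of 23 tested, 9 rose and 3 fell with Fucotrim I, 10 rose and 6 fell with Fucotrim II, 7 rose and 3 fell with SGN-2FF, and 5 rose and 5 fell with P-SiaFNEtoc. Among all genes, 21.6%, 25.6%, 11.5% and 9.02% were called higher in that order, and 22.1%, 25.7%, 9.08% and 7.33% lower. Whether the list differs from all genes was not tested. The falls with SGN-2FF depended on the tool, as DESeq2 called 0 lower and limma-voom 3. The falls numbered 0 or 1 with SGN-2FF without DMSO replicate 1 (1), SGN-2FF replicate 1 (1) or SGN-2FF replicate 2 (0), and 3 with P-SiaFNEtoc without DMSO replicate 2 or P-SiaFNEtoc replicate 2. Their medians were 0.14, 0.16, 0.14 and -0.02 on the log2 scale. TMPRSS2, a membrane serine protease gene, had the largest rise of the list with Fucotrim I, Fucotrim II and SGN-2FF. It was at 28.8 to 29.9 CPM in DMSO, 72.9 to 79.2 with Fucotrim I, 75.8 and 79.9 with Fucotrim II, 61.4 to 68.0 with SGN-2FF and 43.4 to 50.4 with P-SiaFNEtoc, so all groups of treated libraries lay above DMSO. Its log2 fold changes were 1.38 ± 0.06, 1.41 ± 0.07, 1.14 ± 0.06 and 0.67 ± 0.06.

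FKBP5, a cochaperone of steroid receptors, rose with the fucosylation inhibitors and fell with P-SiaFNEtoc. It stood at 527 to 572 CPM in DMSO, 1050 to 1104 with Fucotrim I, 884 and 886 with Fucotrim II, 672 to 717 with SGN-2FF and 488 to 501 with P-SiaFNEtoc. The log2 fold changes were 0.98 ± 0.05, 0.68 ± 0.06, 0.35 ± 0.04 and -0.15 ± 0.04. SLC45A3, which encodes the luminal protein prostein, and PMEPA1, a membrane adaptor gene, rose with all 4 inhibitors. For SLC45A3 the call with P-SiaFNEtoc (0.21 ± 0.07) was lost without DMSO replicate 2 (0.13), DMSO replicate 3 (0.23), P-SiaFNEtoc replicate 1 (0.22) or P-SiaFNEtoc replicate 3 (0.17). With P-SiaFNEtoc NDRG1 had the largest rise of the list (0.71 ± 0.06). MPHOSPH9 fell by 0.55 with Fucotrim I, 0.99 with Fucotrim II, 0.16 with SGN-2FF and 0.30 with P-SiaFNEtoc, and the call with SGN-2FF was lost without DMSO replicate 2 (-0.13), SGN-2FF replicate 1 (-0.13) or SGN-2FF replicate 2 (-0.19). PTGER4, a prostaglandin receptor gene, had the largest fall of the list with SGN-2FF, by 0.36.

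**Figure D4:**
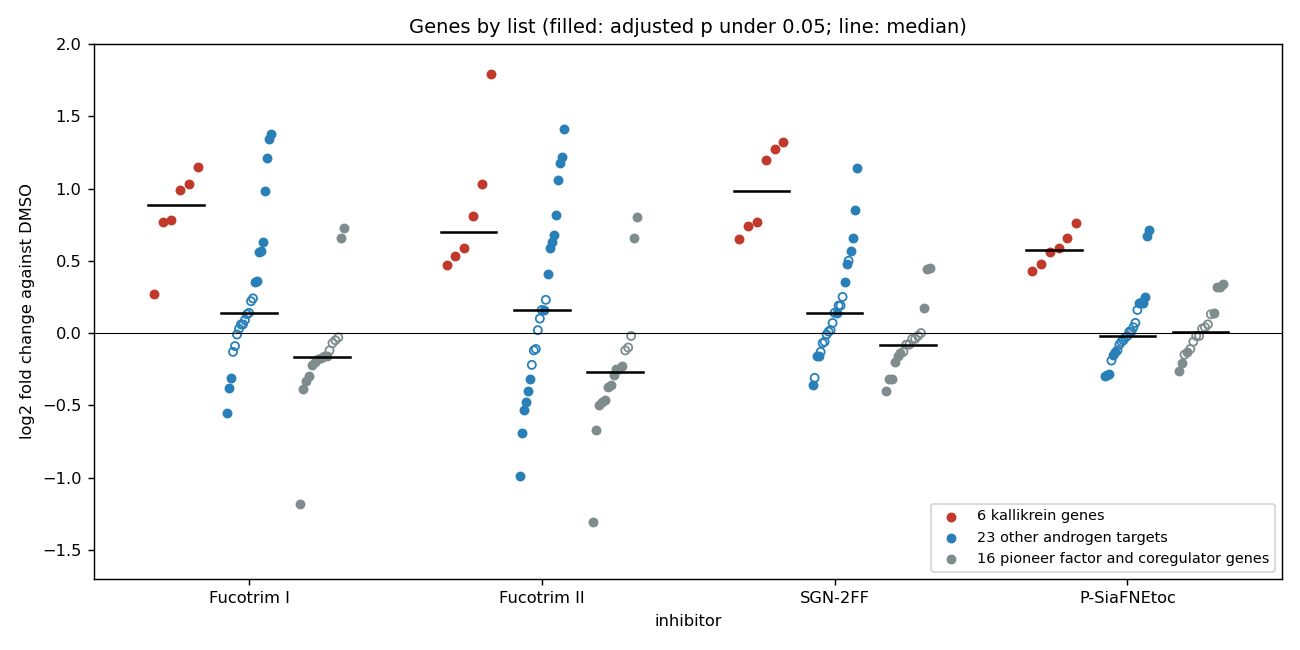
Log2 fold change against DMSO (vertical axis) by inhibitor (horizontal axis) for 6 kallikrein genes (red), 23 other androgen targets (blue) and 16 genes for pioneer factors and coregulators (grey), with filled points for an edgeR adjusted p under 0.05 and a line at each median. The kallikrein medians are 0.88, 0.70, 0.98 and 0.57, and those of the other targets 0.14, 0.16, 0.14 and -0.02.

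The luminal markers, like the kallikreins, had a summed level above DMSO with each inhibitor, but the order of the inhibitors differed. The luminal sum was 1261 to 1356 CPM in DMSO, 1929 to 2002 with Fucotrim I, 1838 to 2145 with Fucotrim II, 1596 to 1700 with SGN-2FF and 1541 to 1619 with P-SiaFNEtoc. It was thus highest with the Fucotrims, while the kallikrein sum was highest with SGN-2FF (666 to 706 CPM). Of the 5 luminal markers 5 rose with each fucosylation inhibitor and 4 with P-SiaFNEtoc. Among all genes, 21.6%, 25.6%, 11.5% and 9.02% were called higher with Fucotrim I, Fucotrim II, SGN-2FF and P-SiaFNEtoc. The sum of the neuroendocrine markers was 322 to 338 CPM in DMSO, 336 to 361 with Fucotrim I, 380 to 422 with Fucotrim II, 308 to 331 with SGN-2FF and 331 to 346 with P-SiaFNEtoc. SYP rose with Fucotrim I (0.15 ± 0.06, a call lost without DMSO replicate 2, DMSO replicate 3 or Fucotrim I replicate 3, at 0.10 to 0.16) and Fucotrim II (0.44 ± 0.09), and ENO2 with Fucotrim II (0.19 ± 0.06). COL1A1, COL1A2 and DCN summed to 17.1 to 18.5 CPM in DMSO, 18.1 to 24.1 with Fucotrim I, 23.5 to 29.8 with Fucotrim II, 16.1 to 18.0 with SGN-2FF and 18.2 to 19.9 with P-SiaFNEtoc, and COL1A1 rose with Fucotrim II (0.59 ± 0.11). The leukocyte markers summed to 4.84 to 6.27 CPM in DMSO, 4.66 to 6.20 with Fucotrim I, 6.14 to 6.56 with Fucotrim II, 6.69 to 8.11 with SGN-2FF and 6.21 to 7.37 with P-SiaFNEtoc. CD68 rose with SGN-2FF (0.46 ± 0.14, adjusted p = 0.0165), a call lost without DMSO replicate 2 or 3 or SGN-2FF replicate 1 or 2 (0.38 to 0.46). The part of these genes in the kallikrein result was not tested.

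Among 11 genes for inhibitors of kallikreins, 5 were tested. SERPINA3, which encodes the antichymotrypsin that binds PSA in blood, was at 0 counts in every library. SPINT2, a Kunitz-type inhibitor of serine proteases, had log2 fold changes of 0.13 ± 0.05, 0.47 ± 0.06, 0.16 ± 0.04 and 0.21 ± 0.04 with Fucotrim I, Fucotrim II, SGN-2FF and P-SiaFNEtoc, all called. Its call with Fucotrim I was lost when any DMSO library, Fucotrim I replicate 1 or Fucotrim I replicate 3 was left out (0.11 to 0.15). SERPINB6, an intracellular serpin, was also called higher with all 4 (0.20 ± 0.06, 0.40 ± 0.07, 0.19 ± 0.05 and 0.15 ± 0.05), but leaving out DMSO replicate 1 or 3 ended the calls with Fucotrim I, SGN-2FF and P-SiaFNEtoc (0.13 to 0.19), as did leaving out Fucotrim I replicate 3 (0.16), SGN-2FF replicate 1 (0.15) or any P-SiaFNEtoc library (0.13 to 0.17) for its own inhibitor. SPINT1 was called with Fucotrim II (0.23 ± 0.08, adjusted p = 0.0365), a call lost when any DMSO library or Fucotrim II replicate 2 was left out (0.11 to 0.27), and was at -0.02, -0.03 and 0.10 with Fucotrim I, SGN-2FF and P-SiaFNEtoc. A2M, which encodes a protease trap of blood plasma, rose with SGN-2FF (0.80 ± 0.08) and P-SiaFNEtoc (1.02 ± 0.07), was at 0.13 ± 0.10 with Fucotrim I, and fell by 0.38 with Fucotrim II, a call lost when any DMSO library or Fucotrim II replicate 1 was left out (-0.44 to -0.18). SPINK5, a Kazal-type inhibitor of skin kallikreins, rose with Fucotrim II (0.88 ± 0.21), with Fucotrim I (0.43 ± 0.16) and with SGN-2FF (0.58 ± 0.14). Its call with Fucotrim I was lost without DMSO replicate 1 (0.38), DMSO replicate 3 (0.30), Fucotrim I replicate 2 (0.32) or Fucotrim I replicate 3 (0.46). In all, 3 of 5 rose with Fucotrim I, 4 with Fucotrim II, 4 with SGN-2FF and 3 with P-SiaFNEtoc. The count with Fucotrim I was 0 without scaling beyond the library total and without DMSO replicate 1, DMSO replicate 3 or Fucotrim I replicate 3. Among all genes, 21.6%, 25.6%, 11.5% and 9.02% were called higher with Fucotrim I, Fucotrim II, SGN-2FF and P-SiaFNEtoc.

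The genes whose 4 log2 fold changes were closest to those of KLK2 and KLK3 were named by the root mean square difference over the 4 inhibitors, over 11829 genes that averaged at least 50 counts. In a fit of all 14 libraries together KLK3 had log2 fold changes of 1.15, 0.59, 1.31 and 0.59 with Fucotrim I, Fucotrim II, SGN-2FF and P-SiaFNEtoc. PHGR1, a gene of gut epithelium, was closest to KLK3, with 1.33, 0.66, 1.26 and 0.69 and a difference of 0.11. It was followed by BANK1 (0.17), the fatty acid hydroxylase gene CYP4F8 (0.25), FAIM2 (0.26) and the simple epithelial keratin KRT7 (0.26). For KLK2 the closest were FAIM2, an inhibitor of Fas-mediated cell death, with 1.11, 0.89, 1.13 and 0.97 and a difference of 0.15, then BANK1 (0.18), KRT7 (0.19), PHGR1 (0.19) and TMEFF2 (0.20), a membrane protein gene of the prostate. The 4 values of each gene share the DMSO libraries, so likeness across them is a description.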

How the data were processed

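RNA-seq was made from CWR22Rv1 cells by the authors, with a stranded mRNA kit and single reads. The reads were trimmed with Cutadapt, mapped to hg38 with HISAT2 and counted on genes with featureCounts, and the authors deposited raw counts without normalization, as separate tables for the inhibitors that each repeat the DMSO libraries (checked to be identical). The annotation release and strand setting are not given in the sources used here. Library totals of 12553094 to 19981453 counts set the counting error.

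Each inhibitor was fitted alone with DMSO with edgeR 4.0.16 in R 4.3.3, with TMM scaling, filterByExpr (minimum count 10, minimum total 15) and the robust quasi-likelihood test, adjusted by the Benjamini-Hochberg method over all genes tested. Fold changes come from these fits, and CPM from TMM factors of all 14 libraries together. Standard errors of fold changes were derived as the absolute log2 fold change divided by the square root of the F statistic. The test was checked on simulated counts. The ratio test used scipy 1.17.1, and limma-voom (limma 3.58.1) and DESeq2 1.42.0 were alternatives, beside other scalings, filters and thresholds, a single fit, a replicate block and leaving out each library. Positions and exons are from GENCODE v44 and promoters from RefSeq.

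The members, gene lists and lists of markers were chosen with earlier results of these data known. The genes named are all members, the other KLK genes by counts (with KLK14 and KLKP1 given values after these were seen), FOXA1, HOXB13, TMPRSS2, FKBP5, SERPINA3, SPINT1 and SPINT2, the called gene with the largest rise or fall of each list and inhibitor, and the 5 genes most like KLK2 and KLK3. Some genes of the lists are not reported here, and counts and medians leave them out. SPDEF, NR3C1, MED1, HSP90AA1, SERPINB6, SLC45A3, PMEPA1, STEAP1 and HPN, for counts of 3 or fewer called with all inhibitors, and TGFB2 and the single markers were named after their values were seen. Of the 3 biological repeats that the methods give for each condition, 2 were analysed here for Fucotrim II, and their numbers differ between titles and library names.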

Additional observations from a re-analysis of the deposited data

How the results depend on the processing

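All 6 tested kallikrein genes were called higher with each inhibitor under all 60 alternatives, 15 per gene and inhibitor, with 6 of 6 called also with the replicate block. The highest adjusted p among them was 0.0235, for KLK11 with P-SiaFNEtoc without P-SiaFNEtoc replicate 1. Replicate numbers were not taken as pairs in the main fits. The correlations of same-numbered libraries with those of DMSO ran from -0.30 to 0.19 by title. For Fucotrim II they were 0.30 and 0.10 by library name. With the replicate block the genes called numbered 7288 with Fucotrim I (6209 without it), 2868 with SGN-2FF (2946) and 2674 with P-SiaFNEtoc (2331). With Fucotrim II they numbered 5300 by title and 7779 by library name (7511 without the block). Without scaling beyond the library total the median of all genes moved to -0.15 with Fucotrim II, against a median of 0.54 for the 6 genes, and the share of calls that were higher was 34.8%, 31.2% and 37.1% with the fucosylation inhibitors (in the order above) in place of 49.4%, 49.9% and 55.9%. Genes called with SGN-2FF numbered 2946, but 1942 with DESeq2, 1642 without SGN-2FF replicate 2, 1695 in a single fit of 14 libraries and 1609 at an adjusted p under 0.01. With P-SiaFNEtoc they numbered 2331, but 1482, 1516 (without P-SiaFNEtoc replicate 2), 998 and 1171.

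The log2 difference in the ratio of KLK2 to KLK3 with SGN-2FF ran from -0.11 to 0.02 when a library was left out, and with Fucotrim I from -0.22 to -0.10. Directions of uncalled genes that turned were those of CYP4F8 with Fucotrim II (-0.04 without scaling), KLK14 with SGN-2FF (0.06 with limma-voom, -0.26 to 0.17 with a library left out) and with Fucotrim II (-1.44 to 0.16), SPINT1 with Fucotrim I (-0.06 to 0.02) and SGN-2FF (-0.08 to 0.01), FN1 with Fucotrim I (-0.13 to 0.04), TGFB2 with SGN-2FF (-0.08 to 0.18), CD68 with Fucotrim I (-0.05 without scaling, -0.07 to 0.14), SYP with SGN-2FF (-0.08 to 0.02) and P-SiaFNEtoc (-0.01 to 0.07), and COL1A1 with SGN-2FF (-0.05 to 0.01). The causes were not tested. Of 720 counts for gene lists 661 stayed within 1.5 times, and of the named single genes 146 calls were lost and 14 gained over 2637 alternatives. With 2 libraries of Fucotrim II, leaving out either assumes that the other varies like DMSO.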

Other observations

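Among proteins that kallikreins are known to cleave, 5 of 9 genes were tested. IGFBP3, which encodes a binding protein for insulin-like growth factors that PSA cleaves, was at 194 to 219 CPM in DMSO, 78.6 to 86.5 with Fucotrim I, 60.008 and 65.0 with Fucotrim II, 118 ± 2.13 (SD, n = 3) with SGN-2FF and 221 to 248 with P-SiaFNEtoc. It fell by 1.32, 1.74 and 0.81 on the log2 scale with the fucosylation inhibitors, and was at 0.15 ± 0.05 with P-SiaFNEtoc, a call lost without DMSO replicate 2 or P-SiaFNEtoc replicate 3 (0.10 in both). FN1, which encodes fibronectin, rose with SGN-2FF (0.49 ± 0.06) and P-SiaFNEtoc (0.60 ± 0.06). F2RL1, a receptor that proteases switch on, rose by 0.40 ± 0.08 with Fucotrim II and by 0.23 ± 0.07 with Fucotrim I, a call lost without DMSO replicate 1 (0.23) or DMSO replicate 3 (0.22). With P-SiaFNEtoc it rose by 0.21 ± 0.07 (edgeR adjusted p = 0.041), a call lost without DMSO replicate 1 or 3 or P-SiaFNEtoc replicate 1 or 2 (0.16 to 0.20). TGFB2, a growth factor gene at 1.95 CPM in DMSO, fell by 0.81 with Fucotrim I (edgeR adjusted p = 0.0228), a call lost without DMSO replicate 1 or 2 or Fucotrim I replicate 1 or 2 (-0.84 to -0.56). In all, 1 rose and 2 fell with Fucotrim I, 1 rose and 1 fell with Fucotrim II and with SGN-2FF, and 3 rose with P-SiaFNEtoc. Among all genes, 21.6%, 25.6%, 11.5% and 9.02% were called higher in that order, and 22.1%, 25.7%, 9.08% and 7.33% lower. Without DMSO replicate 2, FN1 was also called lower with Fucotrim II (-0.30).

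Of 7 tested genes for other secreted or surface products of the luminal prostate, 5 rose with each fucosylation inhibitor and 2 with P-SiaFNEtoc, and none was called lower with edgeR, DESeq2 or limma-voom, or was lower at an unadjusted edgeR p under 0.05. The count with SGN-2FF was 3 without DMSO replicate 3. Among all genes, 21.6%, 25.6%, 11.5% and 9.02% were called higher with Fucotrim I, Fucotrim II, SGN-2FF and P-SiaFNEtoc, and 22.1%, 25.7%, 9.08% and 7.33% lower. STEAP1, a metalloreductase of the cell surface, rose by 0.73 ± 0.05, 0.68 ± 0.07, 0.74 ± 0.04 and 0.20 ± 0.05 with Fucotrim I, Fucotrim II, SGN-2FF and P-SiaFNEtoc, and HPN, the membrane protease hepsin, by 0.77 ± 0.09, 1.34 ± 0.09, 0.38 ± 0.08 and 0.30 ± 0.08. PSCA, at 1.42 CPM in DMSO, rose with Fucotrim I (1.37 ± 0.33) and Fucotrim II (1.15 ± 0.22) and was at -0.28 and -0.38 with SGN-2FF and P-SiaFNEtoc, where it was not called.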
